A study of Mus musculus with 8 samples.

Results

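The 27 genes described here are very long genes of the kind found at chromosomal fragile sites, and they were chosen by name, by a rule that uses no measured value, though with earlier results of these data known. All 27 were found in the RefSeq gene table of GRCm38.p6, among 34614 protein-coding and lncRNA genes on the autosomes and sex chromosomes. They lie on autosomes, are between 725 kb (Exoc4) and 2271 kb (Ptprd) long, and cover 38.6 Mb with 1 kb added at each end. A peak was given to a gene when its summit, the position of highest signal, lay in the gene or within that added 1 kb. In all, 593 of the 40207 deposited R-loop peaks lay in these genes, 376 from young and 217 from aged cells.

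The study mapped R-loops in haematopoietic stem cells from the bone marrow of young and aged mice, sorted as lineage-negative, Sca1-positive, cKit-positive and CD34-negative cells. DNA:RNA hybrids were captured with the S9.6 antibody from genomic DNA and sequenced by strand (ssDRIP-seq), with 2 immunoprecipitated and 2 input libraries per age. The animals were untreated, and no source used here states their strain, sex, number or age in weeks. The 4 deposited lists hold 1 age and 1 strand each, with the replicates of an age combined. No spread between replicates can therefore be had, no difference between ages was tested, and every interval below covers counting error only. The lists hold no expression values, so the labelled cell type was not checked against marker genes.

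An R-loop forms when a new transcript pairs again with its DNA template and leaves the other strand single. Very long genes are known for late replication and for breakage when replication is slowed. Transcription across them takes long enough to meet a replication fork, and R-loops have been studied as part of that encounter. Many of these genes are best known from neurons, where they encode adhesion molecules, receptors and synaptic scaffolds.

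The annotated starts of these genes carried no peak, and the sequence before 3 starts of Dlg2 is shown because a peak came closest to a start there. Of the 27 genes, 19 had an entry in the RefSeq promoter table (GRCm38.p6), with 32 windows of 300 bases (250 before and 50 after a start). No window was overlapped by a peak of either age (0 of 32, which allows a share of up to 9.38%). Among all 32817 windows of the table, 0.488% were overlapped by a young peak and 0.378% by an aged peak, so 32 windows are too few to show a difference. The distance from a window to the nearest peak ranged from 0.17 kb to 152 kb, with a median of 18.2 kb. At Dlg2, which encodes a postsynaptic scaffold protein, a young reverse peak of 8 reads (chr7:92061745-92061974) ended 170 bases before the window of an internal start. The 250 bases before each of the 3 Dlg2 starts in the table are printed 5′ to 3′ on the plus strand, with every CG in capitals.
Dlg2 start at 91090786, chr7:91090536-91090785: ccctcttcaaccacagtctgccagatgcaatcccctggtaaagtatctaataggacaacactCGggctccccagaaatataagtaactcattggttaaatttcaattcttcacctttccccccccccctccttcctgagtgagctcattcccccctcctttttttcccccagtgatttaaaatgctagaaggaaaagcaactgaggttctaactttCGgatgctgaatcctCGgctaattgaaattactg
Dlg2 start at 92062394, chr7:92062144-92062393: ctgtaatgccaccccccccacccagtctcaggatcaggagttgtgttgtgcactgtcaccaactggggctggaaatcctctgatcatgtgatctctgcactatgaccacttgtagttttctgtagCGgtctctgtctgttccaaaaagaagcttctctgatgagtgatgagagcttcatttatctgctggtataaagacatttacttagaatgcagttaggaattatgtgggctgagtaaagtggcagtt
Dlg2 start at 92234970, chr7:92234720-92234969: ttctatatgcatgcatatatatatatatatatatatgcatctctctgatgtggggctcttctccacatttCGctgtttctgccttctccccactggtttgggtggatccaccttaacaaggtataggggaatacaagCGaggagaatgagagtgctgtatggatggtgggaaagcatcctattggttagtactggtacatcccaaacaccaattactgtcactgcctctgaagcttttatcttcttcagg
These stretches hold 3, 1 and 2 CG, where the median over all windows of that length was 6, and 92.1% held at least 1 (CG reads the same on both strands). Member windows as a whole were not poor in CG: they held from 1 to 54 in 300 bases, with a median of 12 against 7 for all windows. The highest count lay before Sdk1, whose nearest peak was 26.7 kb away.

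Peaks were about as dense in the 27 genes as on the autosomes. Young cells had 9.73 peaks per Mb in them (exact 95% Poisson interval 8.78 to 10.8) and 9.18 over all autosomes. Aged cells had 5.62 (4.90 to 6.42) and 6.26. The ratio of the genes to the autosomes was thus 1.06 (0.956 to 1.17) in young and 0.898 (0.783 to 1.03) in aged, and both intervals include 1. The 311 other autosomal protein-coding genes of at least 400 kb were close to the 27, with 9.62 per Mb in young and 5.81 in aged. The autosome length runs from the first to the last peak of each chromosome and includes assembly gaps, so the autosome density is a slight underestimate.

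The balance of the ages also lay near that of other long genes. The 27 genes held 1.73 young peaks for each aged peak (1.46 to 2.06), the other long genes 1.66 (1.54 to 1.78) and the autosomes 1.47. In 17 other long genes described at fragile sites or at break clusters, among them Wwox and Fhit, the ratio was 1.74 (1.34 to 2.26). For 20 long genes described in blood cells, such as Mecom, Foxp1 and Runx1, the ratio was 0.974 (0.697 to 1.36), from 74 young and 76 aged peaks. Their aged density of 9.54 per Mb (7.51 to 11.9) lay above the interval of the 27 genes, and their young density of 9.29 (7.29 to 11.7) did not. Part of both lists is also among the 311 other long genes, and both were chosen with earlier results of these data known. The blood-cell list includes Lpp and Camk1d, already known for strong peaks in these data, with a bias to aged cells at Lpp. Its ratio and its aged density are therefore not independent of those results.

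**Figure D1:**
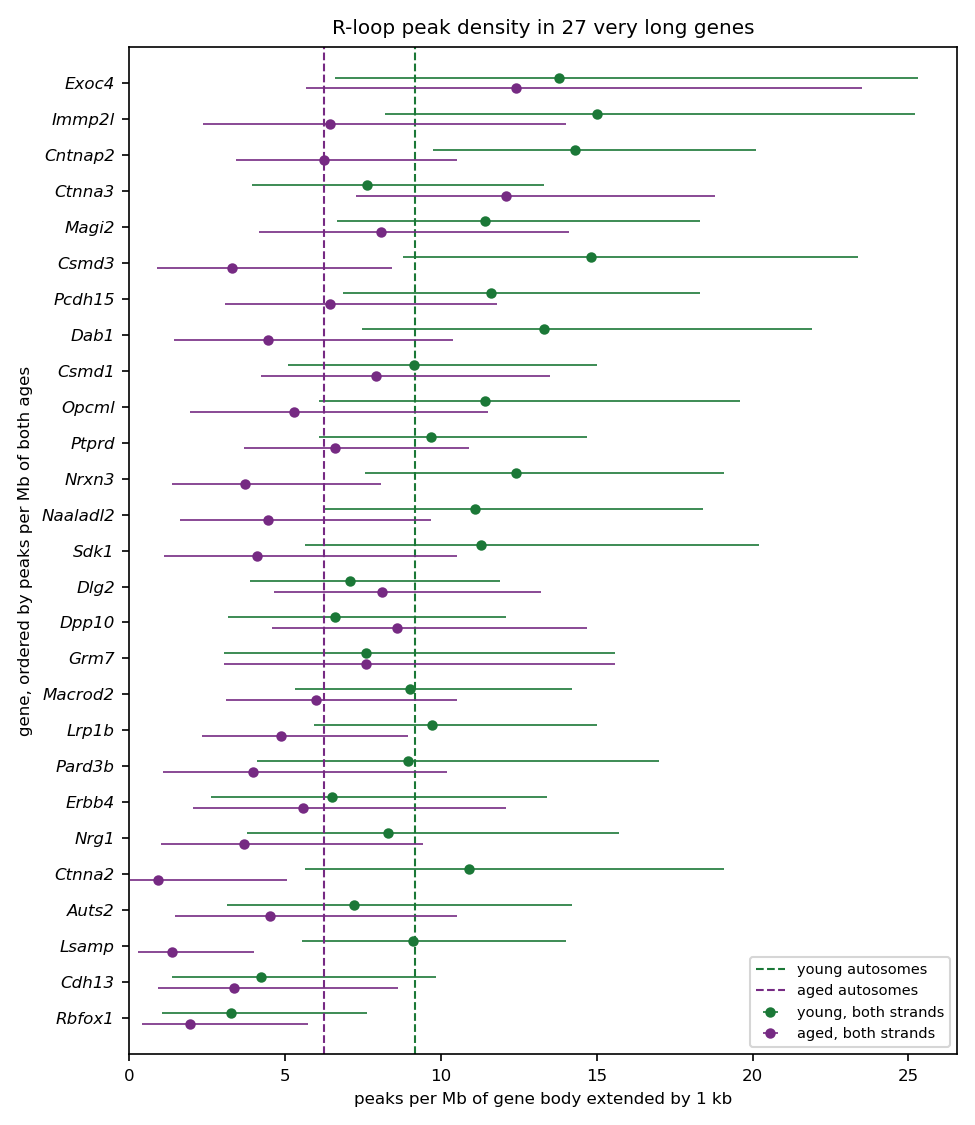
Peaks per Mb in each of the 27 genes, in young (green) and aged (purple) cells with both strands counted together; bars are exact 95% Poisson intervals and dashed lines the autosome densities of 9.18 and 6.26. Most intervals cover the line of their age. The whole aged intervals of Ctnna2, Lsamp and Rbfox1 lie left of the aged line, as do the aged points, but not the whole intervals, of many other genes.

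Every one of the 27 genes carried a peak in each age. Over all protein-coding and lncRNA genes 19.8% had a young and 16.1% an aged peak, but these genes are far shorter. Among the 311 other long genes 100% had a young peak and 93.2% an aged peak, so the full count is near what long genes show. Counts per gene ranged from 5 to 32 in young (median 14) and from 1 to 19 in aged (median 6). Peaks of all 4 lists were present in 24 of the genes. That count depends on the number of peaks in a gene and was not made for the other long genes. Sdk1 and Nrg1 had no aged forward peak, and Ctnna2 had no aged reverse peak.

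Young peaks outnumbered aged peaks in 23 of the 27 genes (85.2%), as they did in 226 of the 311 other long genes (72.7%). The 3 genes with more aged than young peaks were Ctnna3, Dlg2 and Dpp10, and Grm7 had 7 of each. Read against the autosomes, where aged peaks made up 40.5% of all peaks, 3 genes had an aged share with an exact binomial interval wholly below that value (11.1% of the 27). These were Ctnna2, Lsamp and Csmd3. Of the other long genes 1.29% lay below in this way. Ctnna3 alone lay above (3.70%, against 0.643% of the other long genes). The 27 genes held a median of 21 peaks and the others 9, and more peaks give narrower intervals, so these shares are not like for like. Among the 85 other long genes at least as long as the shortest of the 27, the shares were 2.35% below and 1.18% above. These 85 match the 27 in least length only. No other long gene is longer than 1612 kb, while Lsamp has 2197 kb, so these shares are not fully like for like either.

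Ctnna2 and Ctnna3 encode alpha-catenins, which link cadherins to actin, and they lay at opposite ends of this order. Ctnna2 (chromosome 6, 76881637 to 77979815) held 5 young forward, 7 young reverse, 1 aged forward and 0 aged reverse peaks. Its density was 10.9 per Mb in young (5.64 to 19.1) and 0.909 in aged (0.023 to 5.06). The single aged peak had 8 reads and a fold of 5.27, and lay 20.9 kb inside the lower gene bound. The aged share was 7.69% (0.195 to 36.0).

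Ctnna3 (chromosome 10, 63430098 to 65003667) held 5 young forward, 7 young reverse, 4 aged forward and 15 aged reverse peaks. The aged density, 12.1 per Mb (7.26 to 18.8), lay above the autosomes and the young density, 7.62 (3.94 to 13.3), did not. Aged peaks made up 61.3% (42.2 to 78.2). The 15 aged reverse peaks were spread over the gene from 10.7 kb to 1143 kb from its lower bound, so no single cluster made up the count. Lrrtm3, a synaptic adhesion gene nested in Ctnna3 (63928497 to 64090255), held 4 of the 12 young peaks and 0 of the aged peaks, an observation picked out after its values were seen.

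Among the other adhesion and surface genes, the limbic adhesion gene Lsamp (chromosome 16, 39984254 to 42181679) had 11 young forward, 9 young reverse, 1 aged forward and 2 aged reverse peaks. Its aged density was 1.36 per Mb (0.281 to 3.99), below the autosomes, and its young density was 9.09 (5.55 to 14). The 3 aged peaks were small, with at most 7 reads. Opcml, a related GPI-anchored adhesion gene, held 13 young and 6 aged peaks. Cntnap2, a neurexin-family gene of axon-glia contacts, had the most peaks of the list, with 17 young forward, 15 young reverse, 2 aged forward and 12 aged reverse. Its young density of 14.3 per Mb (9.76 to 20.1) was the only one above the autosomes (3.70% of the genes, against 4.18% of the other long genes and 5.88% of the 85 longest of them), and its aged density was 6.24 (3.41 to 10.5). The presynaptic neurexin gene Nrxn3 held 20 young and 6 aged peaks. Sdk1, an immunoglobulin-family gene of synaptic layering, had 5 young forward, 6 young reverse and 4 aged reverse peaks. The receptor phosphatase gene Ptprd held 22 young and 15 aged peaks, and Pcdh15, a protocadherin of hair-cell tip links, 18 and 10. Cdh13, the GPI-anchored T-cadherin gene, was among the sparsest, with 3 young forward, 2 young reverse, 1 aged forward and 3 aged reverse peaks and 7.58 per Mb over both ages. With the catenin genes, these 10 genes held 165 young and 82 aged peaks, or 10.4 and 5.17 per Mb, and an aged share of 33.2% (27.4 to 39.4).

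The CUB-and-sushi genes Csmd1 and Csmd3 encode large transmembrane proteins with complement-control domains, and Lrp1b encodes a lipoprotein receptor family member. Csmd3 (chromosome 15, 47580638 to 48792558) had 12 young forward, 6 young reverse, 2 aged forward and 2 aged reverse peaks. That is 14.8 per Mb in young (8.79 to 23.4) and 3.30 in aged (0.898 to 8.44), with an aged share of 18.2% (5.19 to 40.3). Csmd1 did not share this balance, with 15 young and 13 aged peaks and an aged share of 46.4% (27.5 to 66.1). Lrp1b held 20 and 10. The 3 genes together had 53 young and 27 aged peaks.

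Scaffold, polarity and trafficking genes held 65 young and 46 aged peaks, an aged share of 41.4% (32.2 to 51.2) that includes the 40.5% of the autosomes. Exoc4, a subunit gene of the exocyst that tethers secretory vesicles, was the densest of the 27 with 26.1 peaks per Mb over both ages. It held 3 young forward, 7 young reverse, 4 aged forward and 5 aged reverse peaks (13.8 per Mb in young, 6.60 to 25.3; 12.4 in aged, 5.66 to 23.5), all of 11 reads or fewer. Magi2, a scaffold gene of synapses and podocytes, held 9 young forward, 8 young reverse, 6 aged forward and 6 aged reverse peaks, 19.5 per Mb over both ages. Dlg2 had 14 and 16, Pard3b, a cell polarity gene, 9 and 4, and Dab1, the adaptor of reelin signalling, 15 and 5.

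The receptor, ligand and channel-associated genes had 7.17 peaks per Mb in young (4.93 to 10.1) and 6.52 in aged (4.40 to 9.30), intervals that include the autosome densities. Erbb4, a receptor tyrosine kinase gene, held 7 young and 6 aged peaks, and Nrg1, which encodes its ligand neuregulin, 7 young forward, 2 young reverse and 4 aged reverse. Grm7, a metabotropic glutamate receptor gene, had 7 and 7. Dpp10, which encodes an auxiliary subunit of potassium channels, had 10 young and 13 aged. The aged share of the 4 genes was 47.6% (34.9 to 60.6).

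Enzymes and nuclear proteins made up the last set. Immp2l, a subunit gene of the mitochondrial inner membrane peptidase, was second in density with 9 young forward, 5 young reverse, 2 aged forward and 4 aged reverse peaks (21.4 per Mb over both ages). Macrod2, which encodes an ADP-ribose hydrolase, held 18 young and 12 aged peaks, and Naaladl2, of the glutamate carboxypeptidase family, 15 and 6. Auts2, a neurodevelopmental gene, held 7 young forward, 1 young reverse, 3 aged forward and 2 aged reverse peaks (11.7 per Mb over both ages). Rbfox1, a neuronal splicing factor gene (chromosome 16, 5884793 to 7412480), was the sparsest of all, with 4 young forward, 1 young reverse, 2 aged forward and 1 aged reverse peaks. Its peak densities of 3.27 per Mb in young (1.06 to 7.63) and 1.96 in aged (0.404 to 5.73) both lay below the autosomes. It was the only gene below in young (0% of the other long genes). In aged Rbfox1, Lsamp and Ctnna2 lay below (11.1%, against 1.29%) and Ctnna3 above (3.70%, against 1.93%). Only 125 of the 311 other long genes are long enough for a count of 0 aged peaks to lie below, and 4 of these did. Among the 85 as long as the shortest of the 27, which match them in least length only, 2.35% lay below and 2.35% above in aged.

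**Figure D2:**
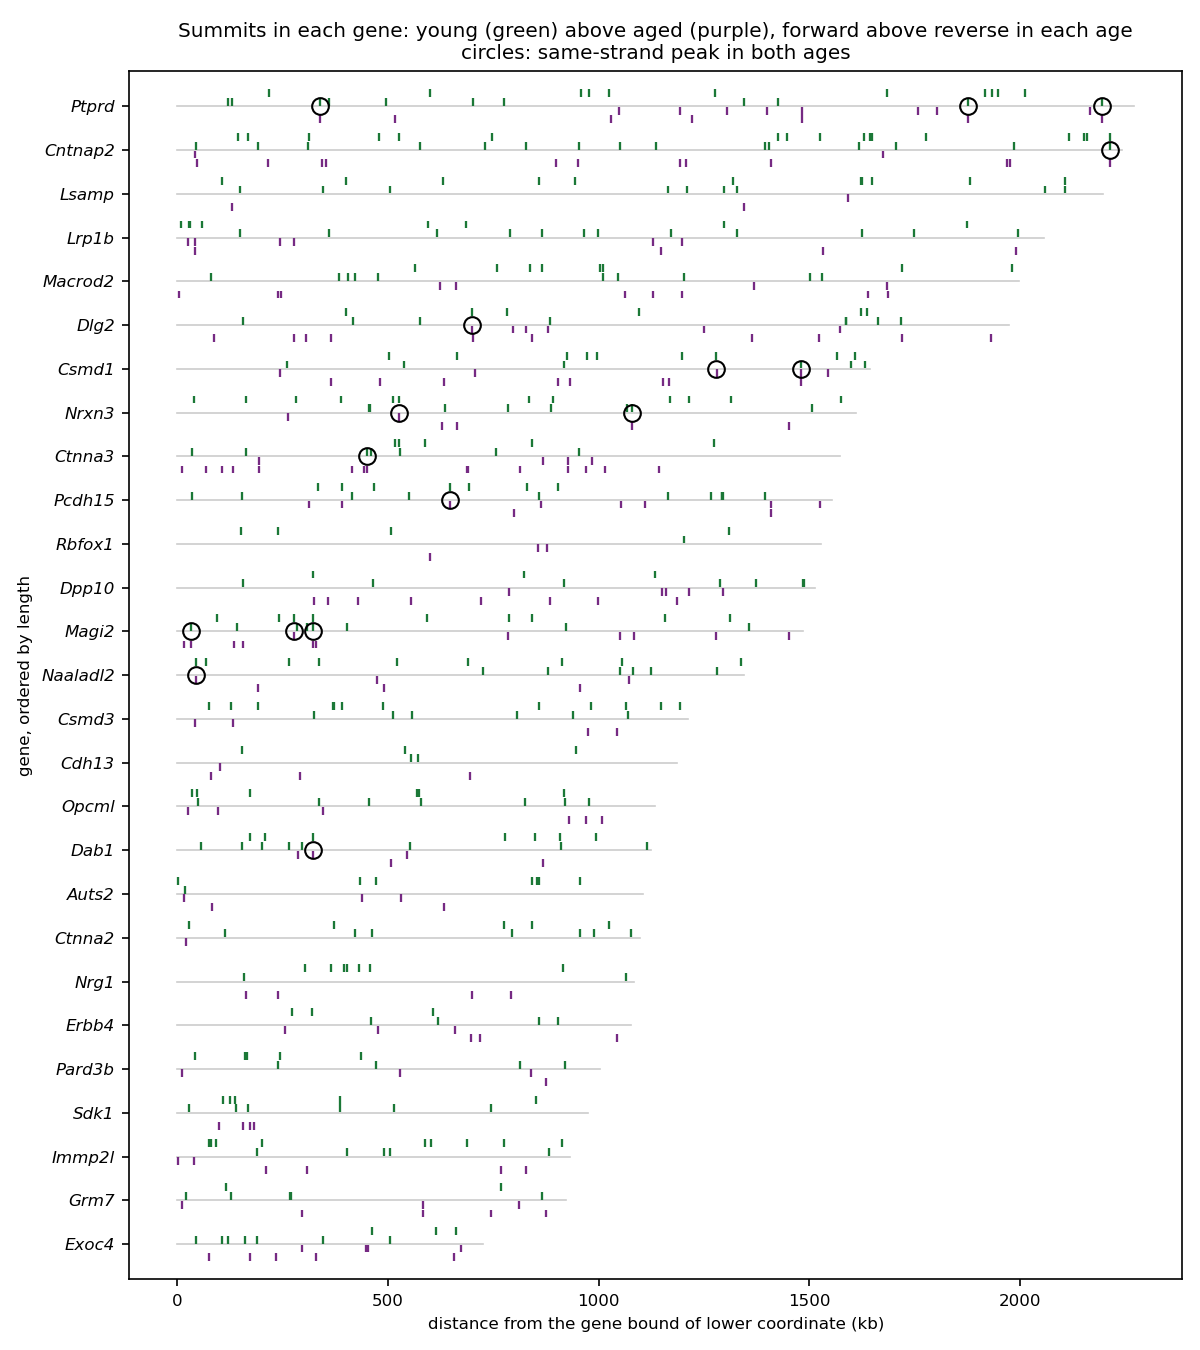
Position of every summit in the 27 genes, as kb from the gene bound of lower coordinate, with young (green) above aged (purple) ticks and forward above reverse within each age. Circles mark the 16 sites with a same-strand peak in both ages, and the peaks are spread along the genes with long stretches free of any summit.

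Peaks were scattered along the genes. The median gap between neighbouring summits of an age was 71.6 kb in young and 91.5 kb in aged, and 59 kb and 82.4 kb in the other long genes. The longest stretch without a summit of either age ranged from 98.1 kb in Immp2l to 351 kb in Auts2. No summit lay within 1 kb of a gene bound, on either side of it (0 of 593, which allows a share of up to 0.506%). Those windows make up 0.280% of the searched length, so a count of 0 is within what this number of peaks allows. In the other long genes 0.881% of summits lay that close to a bound, over 0.634% of the searched length. The nearest summit inside a bound was 2.13 kb in, in Auts2, and the nearest outside was 2.66 kb out, at Exoc4, so the added 1 kb chose no peak.

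In the 19 genes whose strand the promoter table gives, young summits were more frequent toward the start. The first 25% of gene length held 85 of 264 young summits, 32.2% (95% Wilson interval 26.9 to 38.1), and 47 of 156 aged summits, 30.1% (23.5 to 37.7). In 240 other long genes with a known strand the shares were 23.9% (21.8 to 26.1) in young and 26.2% (23.5 to 29.1) in aged. The young intervals do not overlap and the aged intervals do. These intervals count every summit as independent, which summits of the same gene need not be. The share was not recounted without single genes, so whether a few genes carry the young difference was not tested. No source used here states which DNA strand the forward list stands for. Counting by list name, 50.8% (44.8 to 56.7) of young and 41.0% (33.6 to 48.9) of aged peaks lay in the list named for the gene's own strand. The other long genes had 45.3% (42.8 to 47.8) and 47.5% (44.4 to 50.7).

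Aged peaks of the 27 genes were uneven between the lists. The reverse list held 127 of the 217, or 58.5% (51.9 to 64.9), against 50.1% on the autosomes, while young peaks were even with 183 of 376, 48.7% (43.7 to 53.7). Ctnna3 and Cntnap2 gave 27 of the aged reverse peaks. Without these genes, which were picked out after their values were seen, the aged share was 54.3% (47.1 to 61.4). Aged peaks of the other long genes leaned the same way, with 601 reverse and 538 forward. So did those of the 17 other fragile-site or break-cluster genes, with 54 and 41, so the direction was not particular to the 27.

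The gene table lists 123 other genes that overlap the 27, and 31 of the 593 summits, 5.23% (3.71 to 7.32), fell in 18 of these. The overlapping genes cover 4.57% of the length of the 27, so their share of summits was close to their share of length. The most lay in C030002A05Rik within Csmd1, with 3 young and 3 aged summits. The table holds no exons, so exon and intron positions are not used here.

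Strong peaks were rare in these genes. The median summit held 8 reads in each age, as it did on the autosomes, and the highest held 16 reads in young and 28 in aged. Reads are those recovered from the deposited fold and p, and they were not scaled for depth here. The deposited lists are named as normalized, and no source used here states what was normalized or how inputs were used. The genome background, used here in place of the unstated depth, was 0.823 to 0.825 reads in the young and 0.689 to 0.690 in the aged lists. At least 15 reads were reached by 2 young peaks, 0.532% (0.146 to 1.92), against 3.54% of young autosomal peaks. In aged 12 peaks did so, 5.53% (3.19 to 9.42), against 9.65%. Per Mb this was 0.0518 (0.00627 to 0.187) in young and 0.311 (0.161 to 0.543) in aged, where the autosomes had 0.325 and 0.604. The other long genes lay between in both ages, with 0.183 (0.129 to 0.254) and 0.443 (0.355 to 0.547), and their intervals overlap those of the 27. The 17 other fragile-site or break-cluster genes had 0.256 (0.0697 to 0.655) in young, from 4 peaks, and 0.384 (0.141 to 0.835) in aged. Those intervals overlap the intervals of the 27 and include the autosome values. A −log10 q of at least 5 was reached by 29 young peaks, 0.647 times the autosome density (0.433 to 0.930), and by 43 aged peaks, 0.850 times (0.615 to 1.15). By that measure the other long genes had 0.896 (0.778 to 1.03) in young and 0.798 (0.692 to 0.915) in aged. The 17 other fragile-site or break-cluster genes had 0.993 (0.588 to 1.57) and 0.684 (0.374 to 1.15). In aged both values lay below that of the 27, and in both ages the intervals overlap. The share of peaks over more than 2 times the genome background was 4.26% (2.64 to 6.80) in young, against 6.98% on the autosomes. In aged it was 9.68% (6.42 to 14.3), against 14%. The other long genes were close to the 27, with 5.14% (4.23 to 6.23) in young and 10.9% (9.21 to 12.8) in aged. The part of raised background in the scarcity of strong peaks was not tested.

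Peaks are named here down to the eighth highest fold of each age, with ties. The highest fold in aged was at Auts2, 14.5 with 28 reads on the reverse strand (chr5:131519581-131519782), and the nearest young summit was 63.2 kb away. Pcdh15 followed with 13.9 and 23 reads on the forward strand (chr10:74503740-74503948) and 11.2 and 18 reads on the reverse strand at the same site. No young peak lay there, the nearest being 13.0 kb away. Peaks also faced each other at Ctnna3, where a reverse peak of fold 11.8 and 19 reads (chr10:63623503-63623786) faced a forward peak of 8.88 and 14 reads. A further Ctnna3 reverse peak reached 12.5 with 24 reads (chr10:63879851-63880045). Dpp10 had 11.8 with 19 reads on the reverse strand, Cntnap2 11.2 with 18 reads on the reverse strand, and Csmd1 9.86 with 16 reads on the forward strand. These peaks lay at backgrounds between 0.689 and 1 read. Of the remaining aged peaks of at least 15 reads, 2 lay in Macrod2 with 18 and 16 reads, the first in the nested lncRNA gene Gm39948. A second Csmd1 site, in the nested gene C030002A05Rik, had 17 reads, and a Naaladl2 peak had 15 reads over a background of 3.

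In young the highest fold was at Csmd1, 9.31 with 16 reads on the reverse strand (chr8:17373828-17374080), in the nested gene C030002A05Rik. An aged peak lay at the same site. Csmd3 had 8 with 15 reads on the forward strand (chr15:47951229-47951436), and no aged summit within 239 kb. Nrxn3 followed with 7.68, Nrg1 with 7.5 and Cntnap2 with 7.49, each on the forward strand and with 13 or 14 reads. The Cntnap2 peak lay in the nested lncRNA gene Gm35280. Peaks of 12 reads and a fold of 7.13 shared the sixth place, in Cdh13, Macrod2, Magi2, Nrxn3 and Ptprd. Peaks of 12 reads on the reverse strand reached nearly the same fold, 7.12, among them a Ptprd peak (chr4:78136229-78136558) that was found again in aged. The highest fold of a gene was larger in aged in 16 of the 27 genes (59.3%), and in 129 of the 290 other long genes with peaks in both ages (44.5%); this difference was not tested.

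Few sites were found in both ages. A same-strand overlap of at least 1 bp joined 16 young and 16 aged peaks. These lay in 10 of the 27 genes, a count of genes not made for the other long genes. The peaks are 4.26% (2.64 to 6.80) of the young, against 6.86% on the autosomes, and 7.37% (4.59 to 11.6) of the aged, against 10.1%. The young interval lies just below the autosome share and the aged interval includes it. Among peaks of under 15 reads, with a partner of any number of reads, the young share was 4.01% (2.45 to 6.51), against 5.03%. The aged share was 5.85% (3.38 to 9.95), against 6.85%. With only peaks of under 15 reads in every list the shares were 2.94% (1.65 to 5.19) against 4.08% in young and 5.37% (3.02 to 9.35) against 6.39% in aged. Both ways, the intervals of both ages include the autosomes. In the 17 other fragile-site or break-cluster genes 7.27% (4.21 to 12.3) of young and 12.6% (7.38 to 20.8) of aged peaks were found again. In the class of 10 to 14 reads 5 of 103 young peaks were found again, 4.85% (2.09 to 10.9), against 9.20%. For aged peaks of that class the shares were 10.2% (4.44 to 21.8) and 11.8%. The class of 8 to 9 reads went the other way, with 4.68% (2.39 to 8.96) against 3.76% in young and 7.14% (2.81 to 17) against 6.87% in aged. At 5 to 7 reads the shares were 2% (0.55 to 7) against 3.22% in young and 3% (1.03 to 8.45) against 4.77% in aged.

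**Figure D3:**
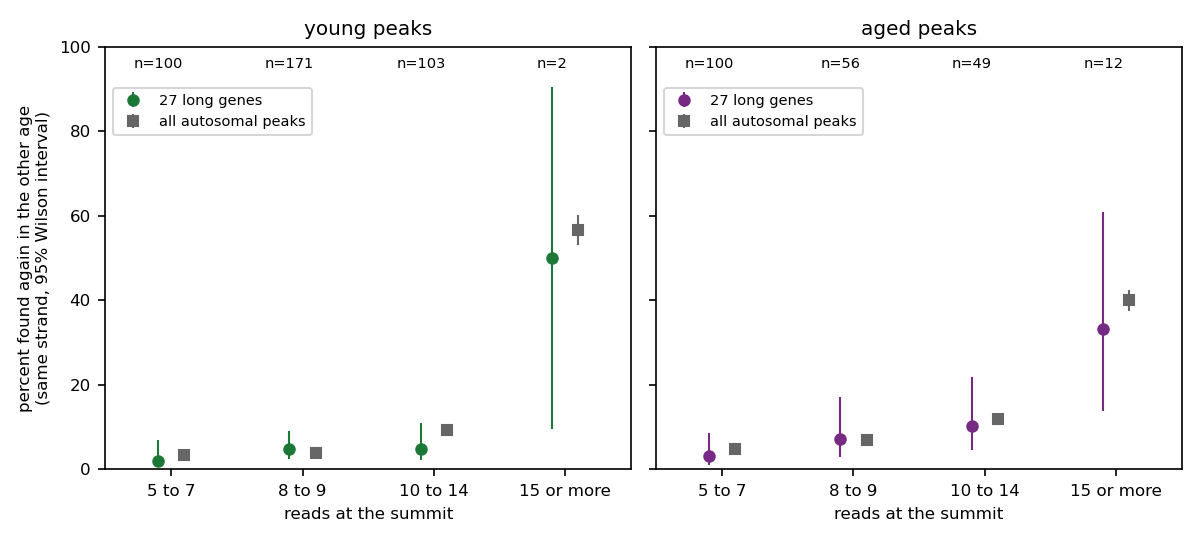
Share of peaks with a same-strand peak in the other age, by reads at the summit, for the 27 genes (coloured circles, n above each) and all autosomal peaks (grey squares), with 95% Wilson intervals. The share is higher at 15 reads or more in both sets, where the 27 genes have only 2 young and 12 aged peaks.

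Ptprd and Magi2 held the most of these sites, 3 each. At Ptprd all 3 were on the reverse strand, with 9, 11 and 12 reads in young and 6, 10 and 8 in aged. The second of them (chr4:77816951-77817162 in young) had a lower fold in aged, 3.67 against 6.57, over a background of 2 reads against 0.825. At Magi2 the reads were 7, 8 and 9 in young and 10, 6 and 8 in aged. Csmd1 and Nrxn3 had 2 sites each, with 9 and 16 young and 16 and 14 aged reads at Csmd1, and 7 and 8 young and 10 and 7 aged reads at Nrxn3. The remaining 6 lay in Cntnap2, Ctnna3, Dab1, Dlg2, Naaladl2 and Pcdh15. The widest difference was at Ctnna3 (chr10:63879851-63880041 in young), with 10 reads in young and 24 in aged over a background of 1 in both. Cntnap2 came next, with 8 and 18. Aged peaks had more reads at 7 of the 16 sites and fewer at 9, and the aged fold was higher at 9. Over the 1518 overlapping pairs of the autosomes, aged reads were higher in 743 and lower in 650, and the aged fold was higher in 925.

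The same bases bounded many of these peaks in both ages. At 8 of the 16 sites the young and the aged peak began at the same base, as did 509 of the 1518 overlapping pairs of the autosomes. The difference between these shares was not tested. At 10 of the 16 (62.5%) at least 1 end agreed within 2 bp. Csmd1 had 2 such sites, chr8:17171999-17172184 on the forward and chr8:17373828-17374080 on the reverse strand, where both ends were identical, as they also were at 1 site each in Magi2 and Pcdh15. On the autosomes 68.5% of the 1518 pairs had an end that agreed within 2 bp, so by that measure the share in these genes was close to that of the autosomes. What fixes these ends was not tested.

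**Figure D4:**
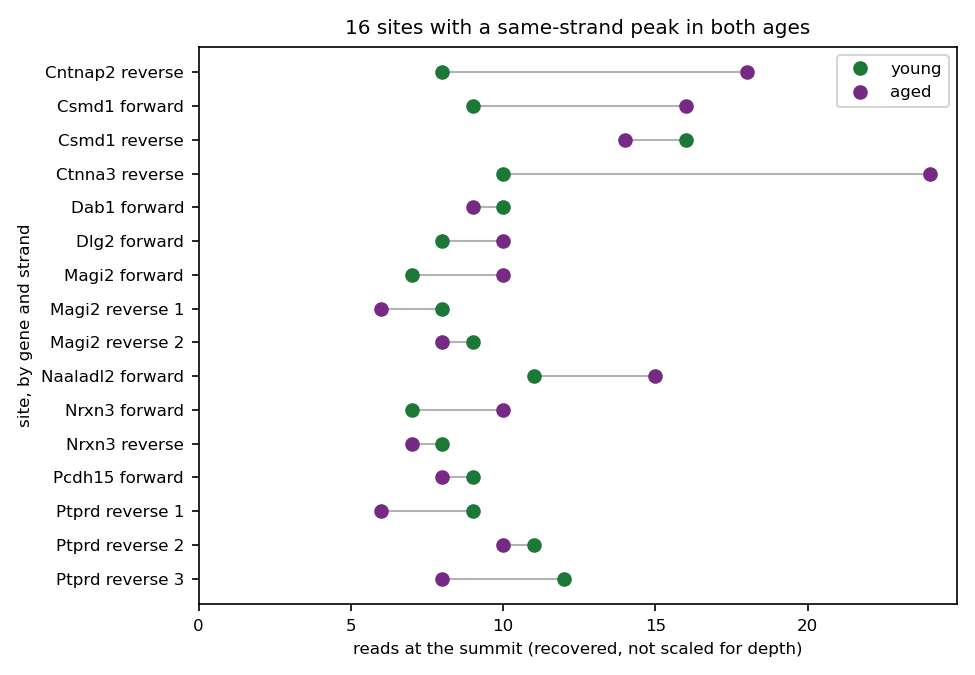
Reads at the summit in young (green) and aged (purple) cells at the 16 sites with a same-strand peak in both ages, labelled by gene and strand. The reads were not scaled for depth here. Ctnna3 and Cntnap2 show the widest differences, 10 against 24 and 8 against 18 reads, and 9 of the 16 sites have more young reads.

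Peaks facing each other on both strands made up a larger share in aged than in young cells, in these genes as on the autosomes. In aged 14 peaks, 6.45% (3.88 to 10.5), had a peak of the opposite strand over them, against 8.90% on the autosomes. In young 4 peaks did, 1.06% (0.414 to 2.70), against 1.50%. With only peaks of under 15 reads in every list the order turned, to 1.07% (0.417 to 2.72) against 0.31% in young and 3.90% (1.99 to 7.51) against 3.06% in aged. The aged interval includes the autosome share. Facing peaks come in pairs, so the 4 young peaks are 2 sites. The intervals count peaks as independent and are too narrow, so they do not show a difference in young. The 7 aged sites lay in Ctnna3 (2 sites), Csmd1, Grm7, Lrp1b, Pcdh15 and Ptprd, and the 2 young sites in Cntnap2 and Magi2. None of these had peaks on both strands in both ages. At Csmd1 the young peak was on the reverse strand only, and at Cntnap2 and Magi2 the aged peak was on the reverse strand only.

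With overlapping peaks of the 4 lists joined, the 27 genes held 568 sites. Of these 546 (96.1%) were found in 1 list, against 94.8% on the autosomes, and 19 in 2 lists. The 3 sites found in 3 lists were those of Cntnap2 (chr6:47274137-47274396), Csmd1 (chr8:17373827-17374080) and Magi2 (chr5:19539982-19540235), or 0.528%, against 0.439% on the autosomes. No site was found in all 4 lists (0 of 568), where the autosomes had 133 of 34834, or 0.382%. A count of 0 allows up to 3 of the 568, or 0.528%, so a difference from the autosomes was not detectable at this number of sites.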

How the data were processed

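The lists come from ssDRIP-seq of young and aged haematopoietic stem cells, grouped by age as the labels state. The submitters' processing notes name MACS3 3.0.0b1, Bowtie2 2.4.4, deepTools 3.5.1 and Trim Galore, with coordinates on GRCm38, and no source used here states settings or read totals. The deposited lists give for each peak its fold enrichment over local background (a ratio), its −log10 p-value, its −log10 q-value and a score, which is 10 times the deposited −log10 q and was not used. These are the authors' values and served only to describe and filter peaks. Whole reads at each summit were recovered from fold and −log10 p in the form MACS uses, and matched within 0.1% for 100% of peaks. Counting was checked on simulated data.

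The 27 members, the comparison lists and the settings were chosen with earlier results of these data known. 1 gene of a comparison list is not reported here and was left out of that list. The comparison with long genes matched for least length was added after the data were seen. The rule for naming genes took the 5 densest and 5 sparsest members, members with a site in both ages, the 8 highest folds per age with ties, members lacking peaks, and members with summits near a bound. The sequence of peaks is not used here, since no genome was given. Promoter sequences are RefSeq's. Intervals came from scipy 1.17.1, under Python 3.11.15 with pandas 2.3.3 and numpy 2.4.6, and plots from matplotlib 3.10.9.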

Additional observations from a re-analysis of the deposited data

How the results depend on the processing

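Of 57 values under other settings, 51 stayed within the counting interval of the value reported and 6 did not. A −log10 q of at least 5 gave 5 of these: the density over the autosomes was 0.647 in young, the share found again was 2.33% in aged (1 of 43 peaks, against 15.4% on the autosomes), the share facing the other strand was 0% in young (0 of 29, against 7.36%) and 14% in aged (6 of 43, against 23.5%), and the young to aged ratio over that of the autosomes was 0.761 instead of 1.18. That setting leaves 72 peaks. Extending peaks by 1 kb gave a young share facing the other strand of 4.26%, against 3.78% on the autosomes. A fold of at least 5, the strongest 8000 peaks per list, merging within 500 bp, other gene bounds, a reciprocal overlap of 50%, either strand, other long genes as background, leaving out Cntnap2, and peaks of under 15 reads (added after the data were seen) gave the others. Under that last setting the shares facing the other strand lay above the autosomes, at 1.07% against 0.31% in young and 3.90% against 3.06% in aged. They rest on 4 young and 8 aged peaks, which come in pairs, so no difference is read from them. No paired analysis was possible because the lists hold no column per replicate, and leaving out a replicate could not be run for the same reason. Depth limits the counts per gene, which are as low as 1.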
